A study of Mus musculus with 7 samples.

Results

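The chemokine genes of mouse haematopoietic stem cells (HSCs) were compared between mice with an induced deletion of Mettl3 and littermate controls. Mettl3 encodes the methyltransferase that forms N6-methyladenosine in mRNA. The chemokine genes were all rows of the deposited table whose symbol begins with Ccl, Cxcl, Ccr, Cxcr, Xcr, Cx3c or Ackr followed by a digit or r, and 55 of 23038 genes met this rule, 35 ligands and 20 receptors. The family itself was chosen by the RPKM group means, with the differences of Ccl5 and Cxcl10 between mutants and controls already known, so differences in these means are given as descriptions. The mutant group was 4 Mx1-cre; Mettl3fl/fl mice and the control group 3 Cre-negative littermates, all C57BL/6 adults. Every animal, controls included, received 10 µg pIpC intraperitoneally 5 times on alternate days, and HSCs were isolated 10 days after dosing ended. pIpC is a double-stranded RNA analogue that induces interferon, and Cre in these mice is driven by the interferon-responsive Mx1 promoter, which is not restricted to HSCs. Because controls lacked Cre, the effects of Cre and of Mettl3 loss cannot be told apart. From each animal 150 Lineage- Sca1+ cKit+ CD150+ CD48- hindlimb marrow cells were sorted, and RNA was read by Smart-seq2, a full-length cDNA method for few cells.

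Chemokines are small secreted proteins that guide cells along gradients by binding receptors coupled to inhibitory G proteins. CC and CXC ligands are named for the spacing of their first conserved cysteines, and many of their genes sit in tandem clusters. In bone marrow, CXCL12 made by stromal cells holds HSCs in the niche through CXCR4, whereas many other ligands are made by leukocytes after inflammatory stimuli such as interferons. Atypical receptors bind chemokines without signalling through G proteins.

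Each gene has 1 deposited value per group, in RPKM (reads per kilobase of gene length and per 1 M reads of library size, M being megareads). These values were read as group means. They carry no SD, so no test is given. The means carry a small offset, 0.0349 RPKM in mutants and 0.0414 RPKM in controls for a gene of 1 kb, and a gene at exactly that offset was read as having no reads. For some genes the value could be broken down into whole reads of each library, and only for those are the groups set side by side library by library. Libraries were told apart by their size alone, 25.7, 26.9, 27.2 and 37.7 M reads in mutants and 19.6, 24.3 and 31.1 M reads in controls. Mettl3 was at 9.60 RPKM in mutants and 49.8 RPKM in controls, 19.3% of the control level. All 7 HSC markers had reads in both groups, among them Slamf1, the CD150 antigen of the sort, at 27.1 RPKM in mutants and 25.9 RPKM in controls, and Kit at 39.9 RPKM in mutants and 67.4 RPKM in controls.

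Most chemokine genes had no reads in these cells. Of the 55 genes, 22 (40%) had reads in at least 1 group, against 63.1% of all genes in the table. Reads were found for 16 of 35 ligands (45.7%) and 6 of 20 receptors (30%). Only 12 chemokine genes reached 1 RPKM in either group, and Cxcr4 was the single receptor among them. Summed over the 35 ligands, the level was 113.6 RPKM in mutants and 62.4 RPKM in controls, a ratio of 1.82, and it came mainly from Ccl5, Ccl4, Cxcl10 and Ccl25 in mutants and from Ccl4 in controls. Summed over the 20 receptors it was 2.09 RPKM in mutants and 1.67 RPKM in controls. Fewer expressing cells and less RNA per cell cannot be told apart in such pools of 150 cells.

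**Figure D1:**
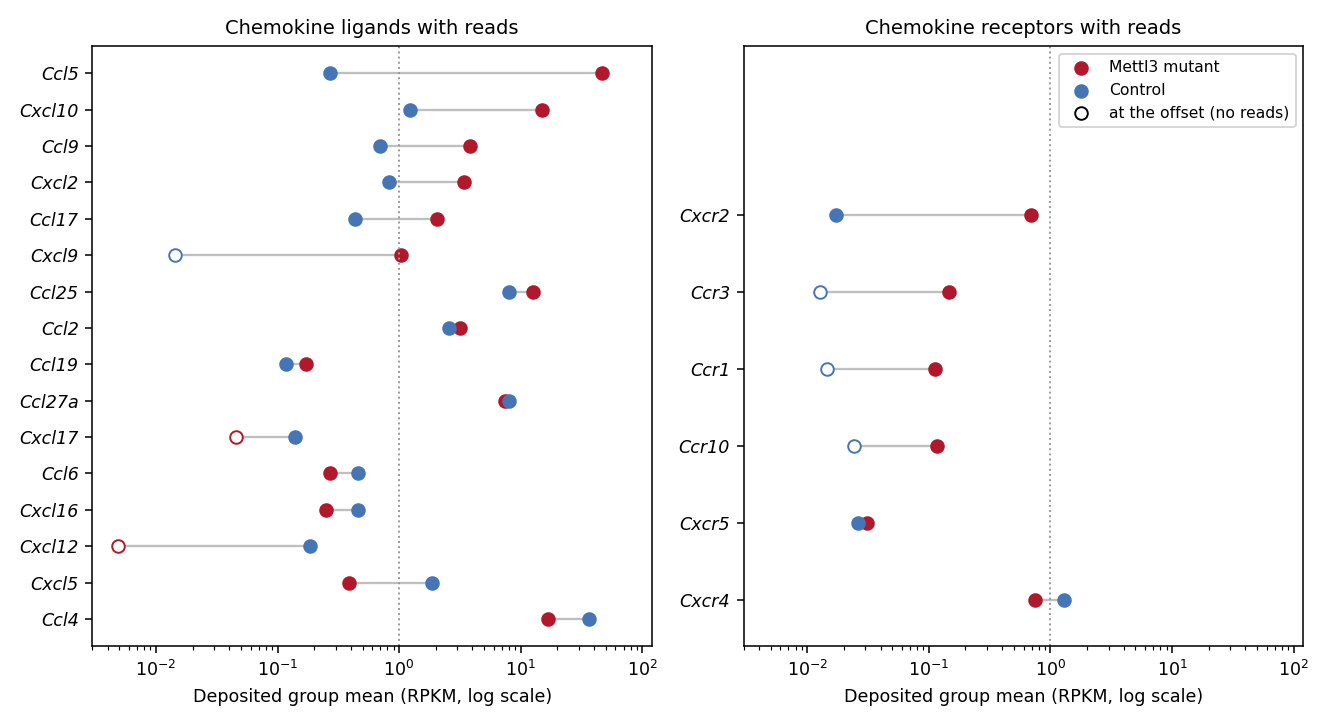
Group means in RPKM (log axis) of the 22 chemokine genes with reads, ligands and receptors apart; each gene has 1 point for the mutant mean and 1 for the control mean, open where the value is the offset. Ccl5 shows the widest separation, at 46.6 RPKM in mutants and 0.270 RPKM in controls, and all receptors except Cxcr4 lie below 1 RPKM.

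On the scale log2((mutant + 1) / (control + 1)), 9 of the 16 ligands with reads had a higher mean in mutants and 7 a lower one, while 52.6% of all 14541 genes with reads were higher and 47.4% lower. At least 2-fold apart on this scale were 6 higher and 2 lower ligands; among all genes with reads, 3.67% were that far higher and 3.47% that far lower. The higher ones were Ccl5, Cxcl10, Ccl9, Cxcl2, Ccl17 and Cxcl9, the last of which lies just under 2-fold if mutant values are rescaled by the median ratio of 1.02, and the lower ones Ccl4 and Cxcl5. With a pseudocount of 0.1 RPKM, 6 ligands were higher and 3 lower by at least 2-fold, beside 10.4% and 9.26% of all genes with reads, and with none 6 were higher and 4 lower, beside 13.6% and 11.5%. The median log2 ratio of the ligands was 0.15, against 0.02 for all genes with reads. As the ligand family was chosen with these differences in view, the counts do not measure how unusual it is. CC ligands were higher in 6 of 9 genes with reads and CXC ligands in 3 of 7.

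**Figure D2:**
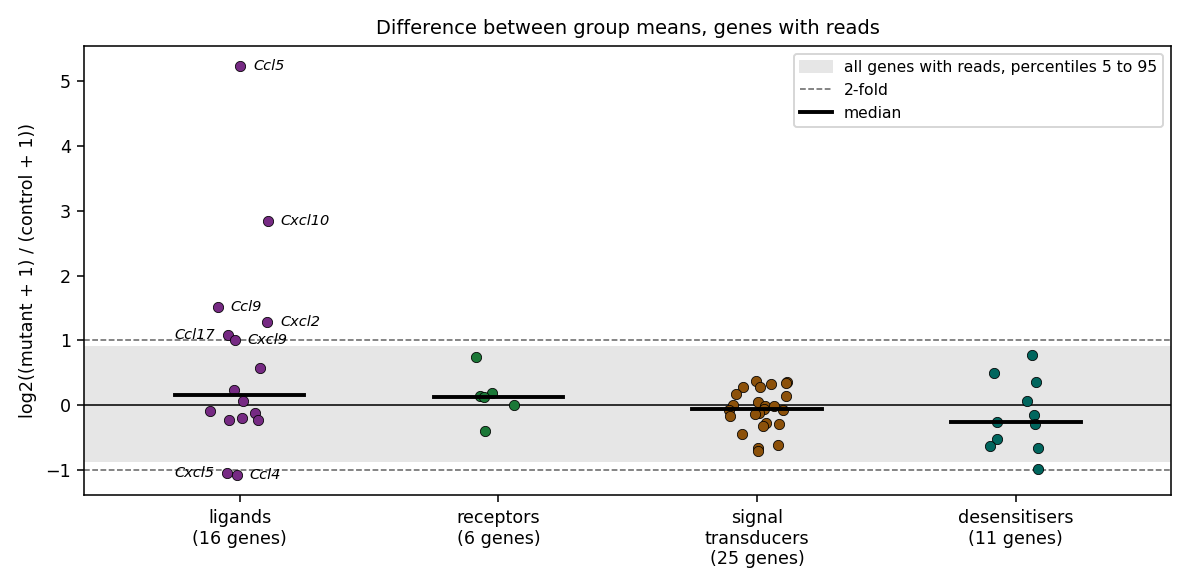
log2((mutant + 1) / (control + 1)) for each gene with reads among the ligands, the receptors, the transducers and the desensitisers of receptor signals; a bar marks the median of each list, grey the span from percentile 5 to 95 of all genes with reads (-0.85 to 0.90) and dashed lines 2-fold. The ligands run from -1.08 for Ccl4 to 5.23 for Ccl5. No gene of the other lists reaches 2-fold at this pseudocount (Rgs2, at -0.99, passes it with a smaller one). Of all genes with reads, 3.67% are that far higher and 3.47% that far lower.

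Ccl5 and Ccl4, both inflammatory CC ligands, were the most abundant chemokines of the set in mutants and differed in opposite directions. Ccl5, which attracts T cells and monocytes, was at 46.6 RPKM in mutants and 0.270 RPKM in controls (gene 20304, chromosome 11, 83525778 to 83530518, GRCm38.p6), a log2 ratio of 5.23. That put it at percentile 88.6 of all genes in mutants and at percentile 43.8 in controls. The control mean was made of 6 reads in the library of 19.6 M, or 0.576 RPKM there, and 0 reads in the other 2 control libraries. The mutant mean was too large for a full breakdown to be tried. No fit was found with reads in only 1 or 2 mutant libraries, but such fits were not tested at values this large. How many mutant libraries contributed is therefore not known. Without the offset the means were 46.5 RPKM in mutants and 0.192 RPKM in controls. Ccl4, which attracts monocytes and T cells, was at 16.7 RPKM in mutants and 36.3 RPKM in controls (chromosome 11, 83648624 to 83664683), 2.17-fold lower in the mutant mean with a log2 ratio of -1.08. In controls Ccl4 alone made up more than all other ligands summed. The Ccl4 values were too large for reads per library to be sought.

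T and natural killer cells, monocytes and platelets are known sources of Ccl5. Of 14 T and natural killer cell markers, 10 had no reads in either group, including Cd3e, Cd3g, Cd8a, Gzma, Gzmb, Prf1 and Ncr1. Their summed level was 64.5 RPKM in mutants and 128 RPKM in controls, nearly all from Nkg7 at 62.3 RPKM in mutants and 124 RPKM in controls. Cd3d had 3 reads, all in 1 mutant library. Of 12 monocyte and macrophage markers with reads, among 14 in the table, 9 had a higher mean in mutants and 3 a lower one, with a summed level of 412 RPKM in mutants and 437 RPKM in controls. Cd68, a lysosomal protein, was at 108 RPKM in mutants and 26.4 RPKM in controls. Hmox1, a haem-degrading enzyme, was at 10.4 RPKM in mutants and 2.03 RPKM in controls. Lyz2, the lysozyme gene, was at 289 RPKM in mutants and 406 RPKM in controls. The complement gene C1qb was at 0.904 RPKM in mutants and 1.87 RPKM in controls. Its partners C1qa and C1qc went the other way. C1qa was at 1.38 RPKM in mutants and 0.212 RPKM in controls, and C1qc at 0.831 RPKM in mutants and 0.677 RPKM in controls. Without Lyz2 the other markers of this list summed to 123 RPKM in mutants and 31.4 RPKM in controls, mostly from Cd68. The direction of the sum thus turns on Lyz2. Of the 9 higher markers, Ly6c2 rested on 1 read and Cd5l on 1 mutant library. Fcgr1 had 74 of its 75 reads in 1 mutant library, and Cd14 had reads in 2. Csf1r and Emr1, the genes of the macrophage growth factor receptor and of F4/80, had no reads in either group. Megakaryocyte markers, 7 of 8 with reads, summed to 159 RPKM in mutants and 116 RPKM in controls. In that list the adhesion molecule gene Selp was at 69.2 RPKM in mutants and 20.05 RPKM in controls, and the platelet receptor gene Clec1b at 0.297 RPKM in mutants and 6.35 RPKM in controls. The part of these markers in the Ccl5 and Ccl4 values was not tested.

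The interferon-induced ligands of CXCR3 that had reads, Cxcl10 and Cxcl9, were both higher in the mutant mean. Cxcl10 was at 15.0 RPKM in mutants and 1.22 RPKM in controls (chromosome 5, 92346638 to 92348889), 12.3-fold higher with a log2 ratio of 2.85. Its reads per library could not be recovered, so how many libraries contributed to either mean is not known. Cxcl9 was at 1.03 RPKM in mutants and at the offset in controls, with 0 reads in each of the 3 control libraries (chromosome 5, 92321331 to 92328079). A floor of 3 reads over the control group is 0.0138 RPKM for this gene of 2905 bases. The mutant mean without its offset was 74.1-fold above that floor. The floor covers counting error only, not the spread between libraries, so this ratio is no firm lower limit. The mutant value was matched by 5 alternative sets of whole reads with 327 to 375 reads in all. Each of these sets has reads in at least 3 of the 4 mutant libraries, and the highest library lies between 1.58 and 2.61 RPKM (1 library holds 206 of 327 reads in the most uneven set). Cxcl11, the third interferon-induced ligand of this receptor, had no reads in either group, and neither had the receptor gene Cxcr3 itself.

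Ligands that act on neutrophils through CXCR2 did not share a direction. Cxcl2 was at 3.44 RPKM in mutants and 0.818 RPKM in controls (chromosome 5, 90903899 to 90905938), a log2 ratio of 1.29. Cxcl5 was at 0.386 RPKM in mutants and 1.86 RPKM in controls (chromosome 5, 90759298 to 90761625), a log2 ratio of -1.05. For Cxcl2 and Cxcl5 the reads per library could not be recovered. Cxcl1 and Cxcl3, which act on the same receptor, had no reads. Neutrophil markers, 5 of 9 with reads, summed to 7.35 RPKM in mutants and 14.7 RPKM in controls. Among them the granule gene Mpo was at 1.43 RPKM in mutants and 0.0492 RPKM in controls, Camp at 0.562 RPKM in mutants and 6.37 RPKM in controls, and S100a9 had no reads in mutants and 78 reads in 2 of 3 control libraries. The part of these markers in the Cxcl2 and Cxcl5 values was not tested.

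The remaining ligands at 1 RPKM or more were CC chemokines of 3 kinds, inflammatory, T cell attracting and homeostatic. Ccl9, a ligand of CCR1 in mice, was at 3.86 RPKM in mutants and 0.699 RPKM in controls (chromosome 11, 83572917 to 83578636), a log2 ratio of 1.52. The reads of Ccl9 per library could not be recovered. Ccl17, a ligand of CCR4 made by dendritic cells, was at 2.03 RPKM in mutants and 0.436 RPKM in controls (chromosome 8, 94809380 to 94812038), a log2 ratio of 1.08. Its reads were 0, 107, 0 and 2 in the mutant libraries of 25.7, 26.9, 27.2 and 37.7 M and 0, 0 and 17 in the control libraries of 19.6, 24.3 and 31.1 M. The 107 reads of 1 library, or 7.75 RPKM there, therefore made the mutant mean, and the other 3 mutant libraries lay at or below 0.103 RPKM, under the 1.07 RPKM of the control library with reads. The groups overlapped library by library. Without the mutant library of 26.9 M the log2 ratio was -0.38, in the opposite direction, and without the control library of 19.6 M or 24.3 M it was 0.92 or 0.91, under 2-fold. Dendritic cell markers, 3 of 6 with reads, summed to 5.64 RPKM in mutants and 9.88 RPKM in controls, with Itgax, Siglech and Cd209a without reads. Nearly all of that sum was Flt3, a receptor gene also expressed in progenitors, at 4.71 RPKM in mutants and 9.76 RPKM in controls. Without it the list summed to 0.937 RPKM in mutants and 0.123 RPKM in controls, mostly from Zbtb46, a dendritic cell transcription factor, at 0.864 RPKM in mutants and 0.0439 RPKM in controls. The part of these markers in the Ccl17 value was not tested.

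Ccl25, Ccl27a and Ccl2 lay closer together in the group means. Ccl25, a thymic and intestinal ligand of CCR9, was at 12.6 RPKM in mutants and 8.06 RPKM in controls (chromosome 8, 4325205 to 4360020), a log2 ratio of 0.58. Ccl27a, a skin ligand of CCR10, was at 7.46 RPKM in mutants and 8.05 RPKM in controls (chromosome 4, 41769467 to 41774225), a log2 ratio of -0.10. Ccl27b, its near-identical copy, had no reads, so how reads were divided between the copies is uncertain. Ccl2, which draws monocytes out through CCR2, was at 3.19 RPKM in mutants and 2.56 RPKM in controls (chromosome 11, 82035577 to 82037452), a log2 ratio of 0.23. Reads per library could not be recovered for Ccl25, Ccl27a or Ccl2.

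Below 1 RPKM, single libraries made most of the values. Ccl6, a ligand of CCR1 in mice, was at 0.268 RPKM in mutants and 0.459 RPKM in controls, from 36 reads in 1 of 4 mutant libraries and 45 reads in 1 of 3 control libraries. Cxcl16, a membrane-anchored ligand of CXCR6, was at 0.252 RPKM in mutants and 0.461 RPKM in controls, from 7 and 85 reads in 2 mutant libraries and 7 and 101 reads in 2 control libraries. Cxcl17, a mucosal chemokine, had 0 reads in mutants and 6 reads in 1 control library. For these 3 genes the libraries of the groups overlapped. Ccl19, a ligand of CCR7 with further copies in the mouse genome that make its value uncertain, was at 0.170 RPKM in mutants and 0.118 RPKM in controls. Cxcl12, the niche factor, was at 0.00487 RPKM in mutants and 0.184 RPKM in controls. The mutant value equals the offset of a gene model of 7161 bases, but the control value gave no whole reads at that length, so its reading as a gene without reads in mutants is uncertain. Of 11 stromal and endothelial markers, 7 had reads, 4 with a higher and 3 with a lower mean in mutants, and they summed to 72.7 RPKM in mutants and 59.6 RPKM in controls. Pecam1, an endothelial adhesion molecule that HSCs also express, was at 50.1 RPKM in mutants and 21.98 RPKM in controls, and the matrix gene Sparc at 3.90 RPKM in mutants and 1.34 RPKM in controls. The endothelial sialomucin gene Emcn was at 16.6 RPKM in mutants and 33.9 RPKM in controls and the pericyte receptor gene Pdgfrb at 1.13 RPKM in mutants and 1.76 RPKM in controls. Without Pecam1 the list summed to 22.6 RPKM in mutants and 37.6 RPKM in controls. Lepr and Pdgfra, markers of the marrow stroma that makes Cxcl12, had no reads in either group, and the part of these markers in the Cxcl12 value was not tested.

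The 19 ligands without reads were Ccl1, Ccl7, Ccl8, Ccl11, Ccl12, Ccl20, Ccl21a, Ccl21c, Ccl22, Ccl24, Ccl26, Ccl27b, Ccl28, Cxcl1, Cxcl3, Cxcl11, Cxcl13, Cxcl14 and Cxcl15. Ccl21a and Ccl21c are near-identical copies whose reads may not be assignable to either. For the 33 ligands and receptors without reads, a floor of 3 reads over the group allows a mean of up to 0.00443 to 0.0906 RPKM in mutants and 0.00694 to 0.142 RPKM in controls, depending on gene length. These floors cover counting error only.

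Receptors were low throughout. Of the 6 with reads, 5 had a higher mean in mutants and 1 a lower one, and the median log2 ratio was 0.13. Among all genes with reads 52.6% were higher and 47.4% lower. On the pseudocount scale 0 receptors were 2-fold apart, where 3.67% of all genes with reads were that far higher and 3.47% lower. With 6 genes a count of 0 is near these shares. The pseudocount sets this count: 2 receptors were at least 2-fold higher with 0.1 RPKM, where 10.4% of all genes with reads were, and 4 with none, where 13.6% were. Of those 4, Ccr1, Ccr3 and Ccr10 had reads in a single mutant library. Cxcr4, the receptor that holds HSCs in the niche, had the highest level, at 0.752 RPKM in mutants and 1.30 RPKM in controls (chromosome 1, 128588199 to 128592299), a log2 ratio of -0.39. Its reads per library could not be recovered.

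Cxcr2, the neutrophil receptor for Cxcl2 and Cxcl5, was at 0.696 RPKM in mutants and 0.0171 RPKM in controls (chromosome 1, 74153994 to 74161246), a log2 ratio of 0.74. The control mean came from 1 read in the library of 31.1 M, and the other 2 control libraries had 0. The mutant value was matched by 2 sets of whole reads, 80, 9, 130 and 4 or 13, 30, 75 and 149 in the libraries of 25.7, 26.9, 27.2 and 37.7 M. In either set all 4 mutant libraries had reads, with the lowest at 0.0349 or 0.166 RPKM against 0.0106 RPKM in the highest control library. That lowest mutant library holds 4 or 13 reads, against 1 read in the control library. How many of all genes are apart in this way was not counted. The neutrophil markers given above had a lower sum in mutants than in controls, and their part in the Cxcr2 value was not tested.

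The other receptors with reads had them in few libraries. Ccr3, the eotaxin receptor, had 46 reads in 1 mutant library and 0 reads in the other 3 and in all controls. Ccr1, a receptor for Ccl5 and other inflammatory ligands, had 31 reads in 1 mutant library, a different one, and 0 reads elsewhere. Ccr10, the receptor for Ccl27a and Ccl28, had 25 reads in yet another mutant library and 0 reads elsewhere. These 3 receptors thus counted as higher in the mutant mean through 1 library each, while the other 3 mutant libraries had 0 reads, as the controls had. This was common: of 706 genes with reads in mutants alone and 1 set of whole reads, 503 (71.2%) had them in a single library. The library of 27.2 M, with the Ccr1 reads, also held all 110 Cd5l and 74 of 75 Fcgr1 reads, both macrophage genes. The same library had 0 reads of Cd14, another marker of that list. It also held 54 of the 71 mutant reads of the B cell marker Vpreb1 and all 3 reads of the T cell marker Cd3d. The library of 25.7 M, with the Ccr3 reads, held 72 of the 120 reads of Cd14 but 0 reads of Cd5l and Fcgr1. The part of these genes in the receptor values was not tested. Ccr3 is best known from eosinophils and basophils. Of 5 basophil and mast cell markers, 4 had no reads, and Cpa3 was at 2.25 RPKM in mutants and 6.02 RPKM in controls, making the list sum 2.40 RPKM in mutants and 6.19 RPKM in controls. Cxcr5, the follicular homing receptor of B cells, had 1, 3, 1 and 0 reads in the mutant libraries and 1, 0 and 1 reads in the control libraries, and the groups overlapped. B and plasma cell markers, 5 of 8 with reads, summed to 140 RPKM in mutants and 138 RPKM in controls, nearly all from Cd79b. Igj, an immunoglobulin joining chain gene, was at 0.0166 RPKM in mutants, the offset of a gene of 2102 bases, and at 1.59 RPKM in controls. The control value was too large for whole reads to be sought. The reading of Igj as a gene without reads in mutants was therefore not checked against it. The part of these markers in the Cxcr5 reads was not tested.

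**Figure D3:**
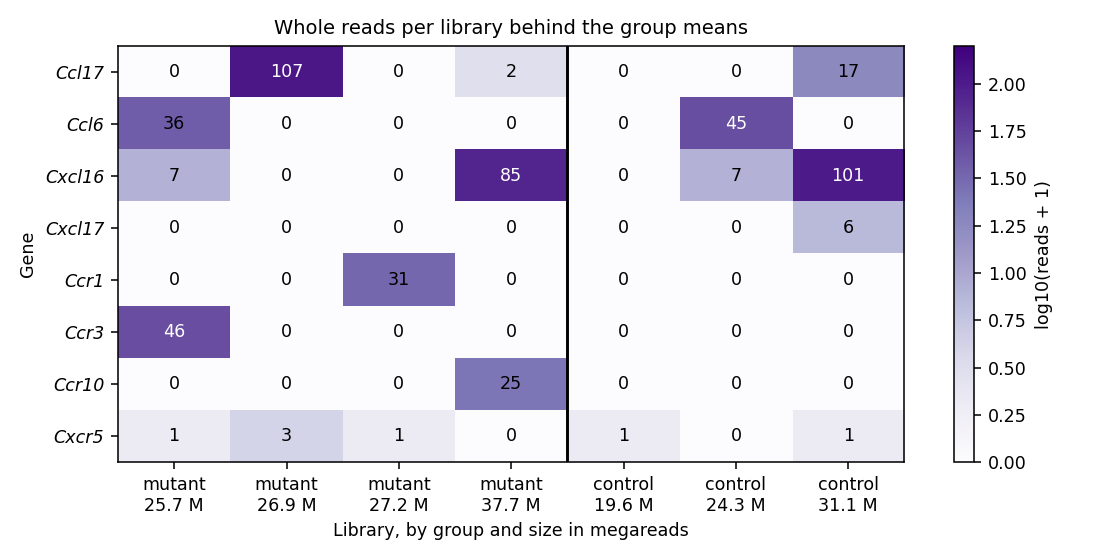
Whole reads in each of the 7 libraries (columns, by group and library size in megareads) for the 8 chemokine genes (rows) whose reads could be recovered in all of them; the colour gives log10(reads + 1). Ccr1, Ccr3 and Ccr10 each have reads in a single mutant library, and Ccl17 has 107 of its 109 mutant reads in 1 library.

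The 14 receptors without reads included Ccr2, Ccr4, Ccr6, Ccr7, Ccr8, Ccr9, Ccr1l1, Cxcr1, Cxcr3, Cxcr6, Cxcr7, Xcr1 and Cx3cr1. Cxcr7 is the older symbol of the atypical receptor Ackr3, which like CXCR4 binds CXCL12. Cxcr3, the receptor for Cxcl10, was thus without reads in both groups, as were Ccr9, Ccr4 and Ccr2, the receptors for Ccl25, Ccl17 and Ccl2.

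Genes with other symbols that encode chemokines or chemokine receptors were looked up from a list of 8, of which 6 had reads, 3 higher and 3 lower in the mutant mean, with a median log2 ratio of 0.01. Pf4, a platelet CXC chemokine, was at 127 RPKM in mutants and 119 RPKM in controls, above every gene of the name-based set. Ppbp, another platelet chemokine, was at 2.56 RPKM in mutants and 1.31 RPKM in controls. Its control reads were 77, 1 and 5 in the libraries of 19.6, 24.3 and 31.1 M, and without the first of these the control mean was 0.128 RPKM. Darc, the atypical receptor Ackr1, was the only one 2-fold apart, at 0.734 RPKM in mutants and 3.29 RPKM in controls, a log2 ratio of -1.31. Ccrl2, an atypical receptor-like gene, was at 15.2 RPKM in mutants and 16.0 RPKM in controls, and Cx3cl1, the ligand of CX3CR1, at 4.09 RPKM in mutants and 5.55 RPKM in controls. Ccrl1, the atypical receptor Ackr4, was at 0.634 RPKM in mutants and 0.401 RPKM in controls, and Xcl1 and Ccbp2 (Ackr2) had no reads.

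The intracellular machinery that carries chemokine receptor signals was well expressed. Of 26 transducers, 25 had reads, 10 higher and 15 lower in the mutant mean and 0 of them 2-fold apart, with a median log2 ratio of -0.05. Among all genes with reads, 52.6% were higher and 47.4% lower, and 3.67% and 3.47% were at least 2-fold higher and lower. Rac2, a GTPase of blood cell migration, was at 288 RPKM in mutants and 362 RPKM in controls. Gnai2, the main inhibitory G protein subunit downstream of chemokine receptors, was at 148 RPKM in mutants and 180 RPKM in controls. Dock2, an activator of Rac, was lowest in ratio at 30.7 RPKM in mutants and 50.9 RPKM in controls. Of 12 desensitisers in the table, which switch receptors or G proteins off, 11 had reads, 4 higher and 7 lower. Of these 11, 0 were 2-fold apart, and their median log2 ratio was -0.25. In lists as short as the transducers and desensitisers, a count of 0 is near the shares of all genes. Rgs2, which speeds G protein inactivation, was at 31.1 RPKM in mutants and 62.6 RPKM in controls, a log2 ratio of -0.99 that passes 2-fold with a pseudocount of 0.1 RPKM or none and with the mutant column divided by the median ratio, and Rgs1 at 120 RPKM in mutants and 190 RPKM in controls. Grk6, a kinase that marks receptors for arrestin binding, was at 28.6 RPKM in mutants and 16.3 RPKM in controls, a log2 ratio of 0.78.

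Neighbouring chemokine genes did not share a direction throughout. In the cluster on chromosome 11 from 83525778 to 83664683 (139 kb, GRCm38.p6), all 4 genes of the set had reads, and from Ccl5 through Ccl9 and Ccl6 to Ccl4 the log2 ratios were 5.23, 1.52, -0.20 and -1.08. The gaps between them were 42.4, 9.2 and 55.5 kb. In the cluster of 6 from 82035577 to 82179812 on the same chromosome, only Ccl2 had reads. On chromosome 5, Cxcl9 and Cxcl10 lie 18.6 kb apart within 41.97 kb (92321331 to 92363296) and both were at least 2-fold higher, while the third gene, Cxcl11, had no reads. In the chromosome 5 cluster from 90759298 to 90905938, Cxcl5 was lower and Cxcl2 higher. The 3 genes of the name-based set between them had no reads. Chemokine genes with other symbols, Pf4 and Ppbp among them, were not placed in the clusters. On chromosome 9, the receptor genes Ccr1 and Ccr3 lie 49.1 kb apart and had their reads in different libraries.

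**Figure D4:**
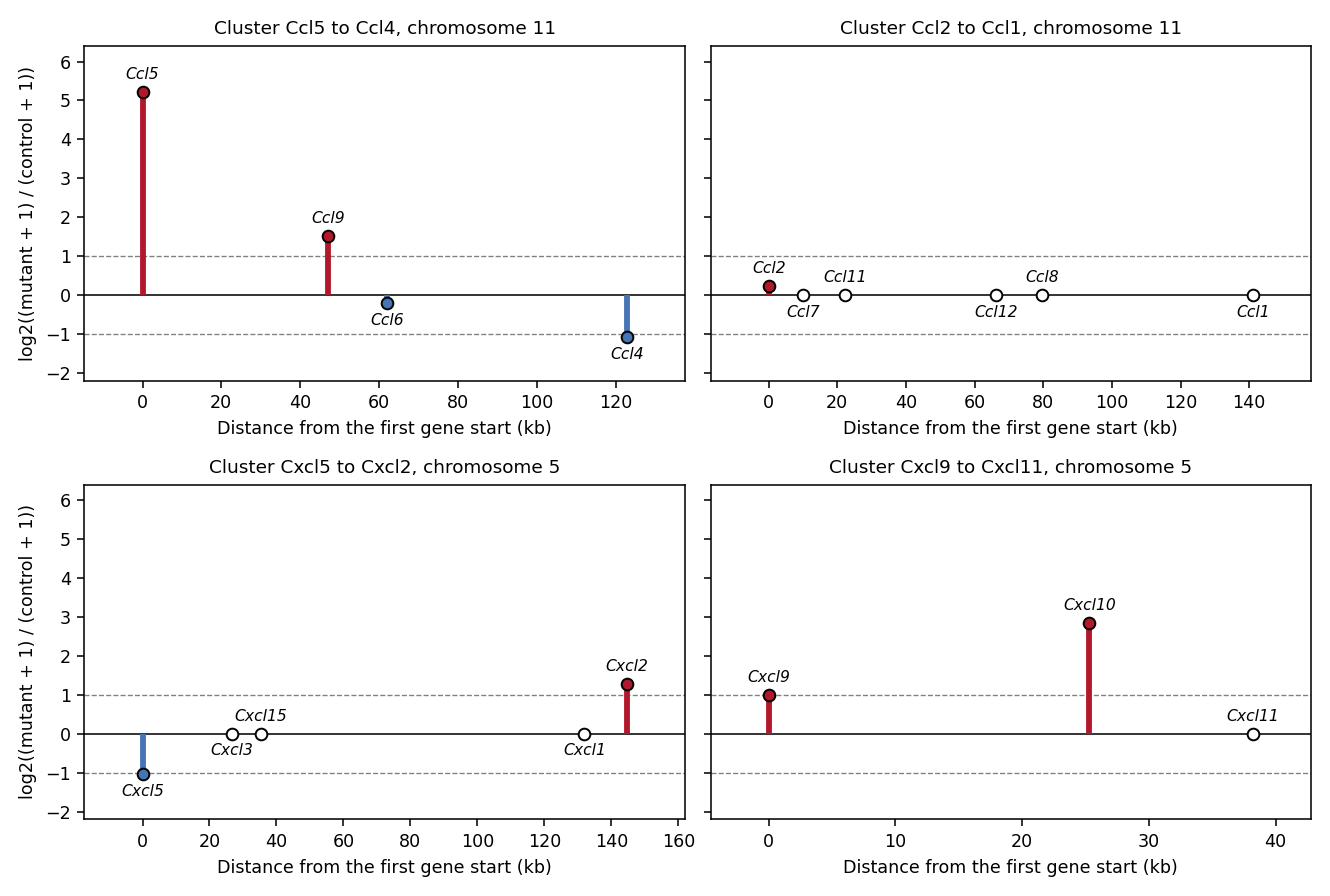
log2((mutant + 1) / (control + 1)) of chemokine genes in 4 tandem ligand clusters against distance from the first gene of each cluster in kb; open symbols are genes without reads and dashed lines mark 2-fold. In the chromosome 11 cluster that begins with Ccl5 the ratios run from 5.23 to -1.08, and Cxcl9 and Cxcl10 both lie at or above 1.00.

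Promoter sequences (250 bases before the annotated start, RefSeq, GRCm38.p6) were at hand for 39 of the 55 genes. They are shown for the 3 ligands farthest apart among these, for Cxcl9 as the neighbour of Cxcl10, and for Cxcr4 as the receptor of highest level. Capitals mark matches, on either strand, to an interferon-stimulated response element (ISRE, GAAA, any 2 bases, GAAA) or an NF-kB site. The sequences run 5′ to 3′ on the strand of the gene.
Cxcl10 promoter, chr5:92348890-92349139, minus strand: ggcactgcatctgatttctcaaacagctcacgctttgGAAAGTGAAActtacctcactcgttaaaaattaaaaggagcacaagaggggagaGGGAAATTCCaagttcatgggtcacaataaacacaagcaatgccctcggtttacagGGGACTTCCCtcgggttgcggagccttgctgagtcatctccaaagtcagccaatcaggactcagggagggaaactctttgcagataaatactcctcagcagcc
Cxcl9 promoter, chr5:92328080-92328329, minus strand: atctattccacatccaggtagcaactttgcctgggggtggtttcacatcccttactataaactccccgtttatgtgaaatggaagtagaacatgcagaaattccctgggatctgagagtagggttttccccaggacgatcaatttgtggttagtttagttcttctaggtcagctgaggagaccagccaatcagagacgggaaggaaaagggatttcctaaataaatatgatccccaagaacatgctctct
Ccl9 promoter, chr11:83578637-83578886, minus strand: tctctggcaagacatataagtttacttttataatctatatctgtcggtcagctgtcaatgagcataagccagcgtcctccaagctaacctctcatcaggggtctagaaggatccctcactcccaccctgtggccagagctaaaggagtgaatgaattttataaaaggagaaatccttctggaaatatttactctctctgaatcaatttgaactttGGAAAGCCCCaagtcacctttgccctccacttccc
Cxcl2 promoter, chr5:90903649-90903898, plus strand: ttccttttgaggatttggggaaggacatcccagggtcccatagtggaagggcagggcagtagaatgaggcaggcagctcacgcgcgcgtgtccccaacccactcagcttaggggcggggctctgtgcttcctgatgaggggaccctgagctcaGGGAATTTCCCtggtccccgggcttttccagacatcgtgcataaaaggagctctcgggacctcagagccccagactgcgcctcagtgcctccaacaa
Cxcr4 promoter, chr1:128592300-128592549, minus strand: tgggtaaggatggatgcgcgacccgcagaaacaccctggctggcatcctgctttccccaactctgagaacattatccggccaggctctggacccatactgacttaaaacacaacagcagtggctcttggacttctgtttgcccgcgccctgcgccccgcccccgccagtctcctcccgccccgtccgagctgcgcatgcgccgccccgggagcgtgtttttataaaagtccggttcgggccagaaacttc

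The Cxcl10 window holds an ISRE match that begins at position -213 from the start and NF-kB matches at -159 and -103. The Cxcl2 window holds NF-kB matches at -97 and -96 that overlap as 1 site, and the Ccl9 window holds 1 at -35. The Cxcl9 and Cxcr4 windows hold neither motif. Over all 32851 promoters of the same length, 2.98% hold the ISRE and 3.9% the NF-kB motif. Of 10 ligands with reads, 2 hold an ISRE match (Cxcl10 and Ccl19) and 3 an NF-kB match (Cxcl10, Cxcl2 and Ccl9). Of 13 ligands without reads, 1 holds an ISRE match and 3 an NF-kB match. Of 4 receptors with reads, 1 holds an NF-kB match (Ccr3), and of 12 without reads, 1 holds an NF-kB match. No receptor window holds an ISRE match.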

How the data were processed

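The authors deposited 1 table of RPKM for 23038 genes with 2 columns, 1 for the mutant and 1 for the control group, per the file headers. That these columns are group means was inferred from the values. The submitters' processing notes name mm10, Picard and edgeR; what each tool did, the aligner and the gene models used are not stated there. The members and gene lists were chosen with earlier results of these data known. Full values were given for members with at least 1 RPKM in 1 group and shorter ones for the rest; from other lists, genes at least 2-fold apart were named, and a few more examples were chosen after their values were seen.

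The pseudocount of the log2 ratios was 1 RPKM, which understates changes of low genes. With 1 deposited value per group there was no test, and 2-fold is a rule of size. Values were read as means of (reads + 1) per kilobase and library size: 8497 genes (36.9%) lay at the offset in both groups. The most frequent small excesses, 4 in mutants and 3 in controls, summed to 34.8508 and 41.4464, against offset constants of 34.8508 and 41.4463, and gave the library sizes. Whole reads were then sought with the gene length from the offset or within 2% of a GENCODE M21 length. They were accepted where 1 length fitted and at most 0.05 accidental fits were expected. Values above a set limit were not broken down, among them those of Ccl4, the mutant value of Ccl5 and the control value of Igj. Of 22 members with reads, 8 were resolved in all 7 libraries, 3 in controls alone and 11 not. This breakdown was added after seeing the data. It was tested on simulated data, but only with lengths known from the offset, so the search over annotated lengths was not simulated. In the real data, 17 of 427 genes with reads in controls alone and 32 of 769 with reads in mutants alone gave no set. A further 31 of the latter gave several. A read may be a read pair. Some items, a receptor and a promoter motif among them, are not reported here. Python 3.11.15, numpy 2.4.6 and pandas 2.3.3 were used.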

Additional observations from a re-analysis of the deposited data

How the results depend on the processing

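No paired analysis was possible because each group is given as 1 value per gene. Count normalizations were not run for the same reason. Leaving out 1 library at a time, added after seeing the data, was run for the 8 members with whole reads in all libraries and, among controls, for the 3 others with whole control reads. It changed the sign of 7 of these 11 members (Ccl17, Ccl6, Cxcl16, Ccr1, Ccr3, Ccr10 and Cxcr5). For Ccr1, Ccr3 and Ccr10 this left 0 reads in both groups. Their log2 ratios of -0.0036, -0.0035 and -0.0031 then reflect the unequal offsets alone. For Cxcr5 the changed ratios were -0.0053 and -0.0008. Of the 3 members that were 2-fold apart, Ccl17 ran from -0.38 to 1.48 in log2 ratio. Ccl5 ran from 5.11 to 5.48 and Cxcl9 from 1.00 to 1.01, these 2 with mutant libraries not left out. With no pseudocount, 4 ligands were at least 2-fold lower in place of 2 (11.5% of all genes with reads) and 4 receptors at least 2-fold higher in place of 0, with a receptor median of 2.61. With a pseudocount of 0.1 RPKM, 2 receptors were at least 2-fold higher and the median was 0.85. In both settings genes of low RPKM weigh more by construction. Of the desensitisers, 1 (Rgs2) was at least 2-fold lower with a pseudocount of 0.1 RPKM, 1 with no pseudocount and 1 with the mutant column divided by the median ratio (1.02), in place of 0. With at least 1 RPKM in 1 group, the median of the 11 remaining ligands was 1.00 and that of the single remaining receptor, Cxcr4, was -0.39. Of 12 members with at least 1 RPKM in 1 group, 7 moved by over 1.5 times with 0.1 RPKM and 7 with no pseudocount, and 0 under the rescalings. The number of ligands at least 2-fold higher was 6, or 5 with the mutant column divided by the median ratio, which takes Cxcl9 just under the threshold. Leaving out the 5 members read in at most 1 library of each group (Ccl6, Cxcl17, Ccr1, Ccr3 and Ccr10) gave medians of 0.41 for ligands and 0.01 for receptors. Subtracting the offset, chosen after seeing the data, moved neither of the 2 members it could be run on by over 1.5 times. The small number of reads behind most receptors limits what their means show.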
